A study of Gallus gallus with 6 samples.

Results

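Haem and iron handling was examined in the liver through 7 genes: ALAS1, UROS and FECH of haem synthesis, HMOX1 of haem breakdown, PGRMC2 of haem carriage, and TFRC and FTH1 of iron uptake and storage. They were taken by gene symbol, without regard to case, and all 7 were found, each once, among the 14481 protein-coding genes of the deposited expression table. The table gives FPKM (fragments per kilobase of transcript, scaled to library size) for the livers of 3 birds labelled ALV-J-resistant and of 3 labelled ALV-J-susceptible, ALV-J being subgroup J of the avian leukosis viruses, which are chicken retroviruses. Each bird is 1 library of total liver RNA. The labels give no strain, age, sex, treatment or infection status, and do not say how resistance was determined. All 7 genes passed the filter of a mean FPKM of at least 0.5 that admitted 9626 genes to testing, but UROS passed it through a single susceptible bird.

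Haem is built from glycine and succinyl-CoA in a chain of enzymes that starts and ends in the mitochondrion, and the liver makes large amounts of it for its cytochrome P450 enzymes. The first step, catalysed by ALAS1, sets the rate and is held down by haem itself. Haem oxygenase opens the ring and frees the iron, which ferritin stores. In vertebrate cells iron-responsive elements in their messages regulate ferritin and the transferrin receptor in opposite directions: low iron raises the receptor and lowers ferritin protein. The values here are of messages only, and ferritin protein and iron are not among them.

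PGRMC2 was the single member whose groups did not overlap: every resistant bird had less of its message than the lowest susceptible bird. The other 6 members overlapped between the groups. No member passed limma over all genes at a Benjamini-Hochberg adjusted p under 0.05, and 0.0% of the genes tested did so. At an unadjusted p under 0.05 limma counted 1 of the 7 members, PGRMC2, lower in resistant birds, where 1.48% of all genes tested were lower and 2.4% higher at that threshold. Among all genes tested, 3.98% were lower in resistant birds with no overlap between the groups and 4.44% were higher. 6 of the 7 members had a negative log2 fold change, resistant minus susceptible, against 47.2% of all genes tested. Their median was -0.51, against 0.05 over all genes tested. 1 of the 6 was UROS, which was listed at 0 in every resistant bird and could not be positive. Without genes listed at 0 throughout a group, the medians were -0.46 for the members and 0.009 for all genes tested. The listed 0s of TFRC and PGRMC2 in resistant 3 remained in these values. Without that bird TFRC was -0.23, and with 0s as missing the median of the 8455 genes left was -0.19. The distance between the members and all genes therefore depended on the treatment of 0s. The members were chosen with earlier results of these data known. The values over all genes therefore stand beside theirs as description and are no test of them. Hepatocyte markers were negative in 9 of 10 (median -0.24) and macrophage markers positive in 7 of 8 (median 0.55). The 9 include ALB and APOB, and the 7 include C1QB and VSIG4, all of which have listed 0s. The part of hepatocytes and macrophages in the members' values was not tested.

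The libraries corresponded to between 3831119 and 6623026 fragments per bird, and between 6671 and 9424 genes had an FPKM above 0. Of the 10 hepatocyte markers in the table, ALB, serum albumin, had 24858 FPKM or more in 4 birds but is listed at 0 for resistant 2 and for susceptible 3, and TTR, transthyretin, had at least 3673 FPKM in every bird. APOB, apolipoprotein B, is listed at 0 for resistant 2 and had 615 FPKM or more in every other bird. A listed 0 can be a failed estimate and is not read here as absence. Resistant 3 and susceptible 3 differed from the other birds in the sex chromosomes. They had 0 fragments on the 9 genes of chromosome W, which hens carry and cocks do not, against 427 and 413 in resistant 1 and 2 and 406 and 145 in susceptible 1 and 2. Their Z genes were also raised relative to the other birds. With each gene centred on its mean over the 6 birds, the Z median minus the autosome median was 0.45 and 0.28 log2 units. In the other birds it lay between -0.22 and -0.12. VTG2, a yolk precursor made by the liver of laying hens, had 12622, 18820 and 9.65 FPKM in resistant 1 to 3, against 3345, 11688 and 20.6 FPKM in susceptible 1 to 3. Each group thus held 1 bird without chromosome W fragments.

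**Figure D1:**
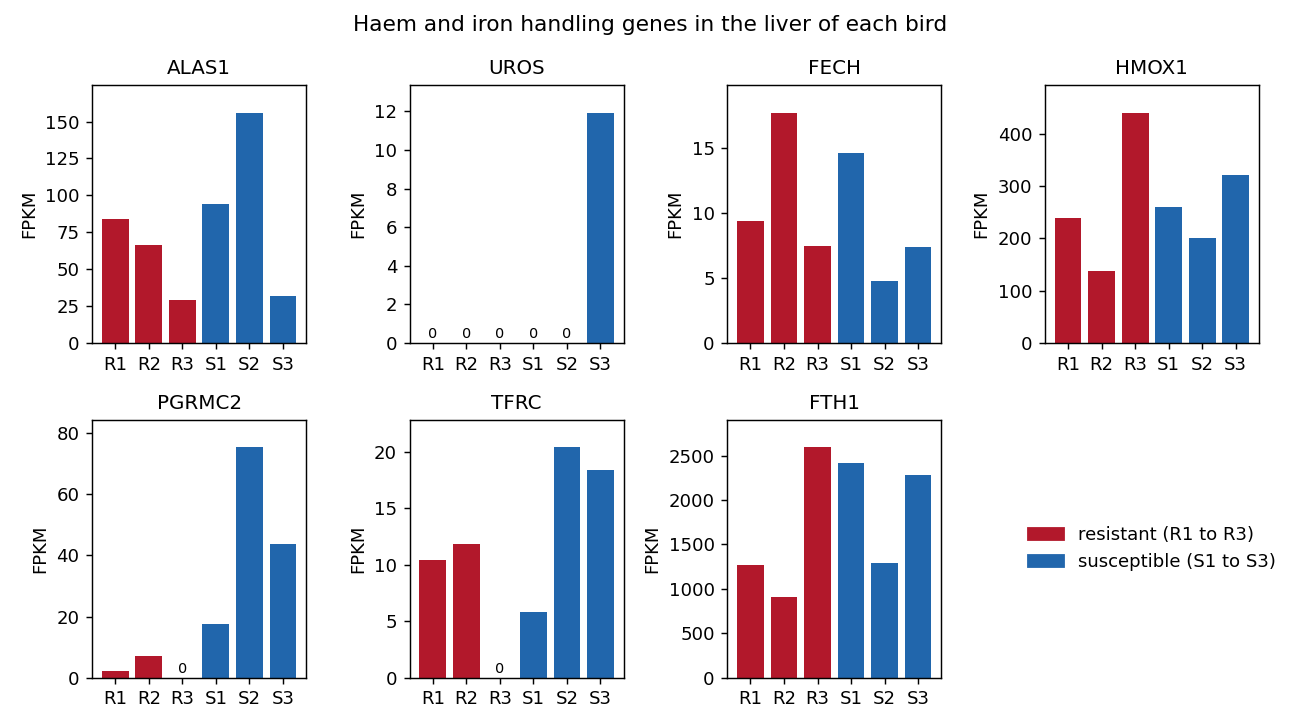
FPKM of the 7 genes in each bird, with resistant birds (R1 to R3) left of susceptible birds (S1 to S3) and a printed 0 where the table lists 0; each panel has its own scale. PGRMC2 is the panel in which all resistant bars, at most 7.24, are below all susceptible bars, at least 17.5.

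In haem synthesis, ALAS1 (5'-aminolevulinate synthase 1; chromosome 12 from 2937527 to 2944369, plus strand, galGal4) was the most abundant of the 3 members in every bird. Its FPKM was 84.0, 66.5 and 28.9 in resistant 1 to 3, against 94.3, 156 and 32.0 in susceptible 1 to 3. The lowest bird of each group was the one without chromosome W fragments, and the groups overlapped. The means were 59.8 ± 28.2 in resistant and 94.1 ± 62.0 in susceptible livers (SD, n = 3), with a log2 fold change of -0.51 (SE 0.62, 95% confidence interval -1.90 to 0.88, limma adjusted p = 0.995). The value rested on single birds: without susceptible 2 it was -0.01, without resistant 3 -0.06 and without susceptible 3 -1.14.

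FECH, ferrochelatase, inserts iron into the finished ring and lies on chromosome Z (380954 to 391792, plus strand). It had 9.37, 17.7 and 7.48 FPKM in the resistant birds, against 14.6, 4.75 and 7.41 FPKM in the susceptible birds. The 2 groups overlapped, from 7.48 to 17.7 FPKM in resistant and from 4.75 to 14.6 FPKM in susceptible birds. The 2 birds with the raised Z level had almost equal FECH, above susceptible 2 but below resistant 1, resistant 2 and susceptible 1. Between 28 and 187 fragments per bird stood behind these values. The means were 11.5 ± 5.44 and 8.91 ± 5.08 in resistant and susceptible livers (SD, n = 3), and the log2 fold change was 0.38 (SE 0.66, 95% confidence interval -1.11 to 1.86). ALAS1 exceeded FECH in FPKM by 8.97, 3.76 and 3.86 times in resistant 1 to 3 and by 6.47, 32.9 and 4.32 times in susceptible 1 to 3, so susceptible 2 combined the highest ALAS1 with the lowest FECH.

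UROS, uroporphyrinogen III synthase, closes the ring of the porphyrin and is on the minus strand of chromosome 6, from 32040619 to 32048593. Its listed FPKM is 0 for all 3 resistant birds and for susceptible 1 and 2, and 11.9, from 47 fragments, for susceptible 3. With a value in 1 bird of 6 it gives no measure of a difference between the groups.

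The wider list of haem synthesis held 12 genes, of which 8 were tested. 0 of the 8 passed the adjusted threshold in either direction and 0 had an unadjusted p under 0.05. 6, UROS among them, had negative and 2 positive log2 fold changes, with a median of -0.68, and of -0.61 without UROS. Of all genes tested 47.2% were negative. CPOX, coproporphyrinogen oxidase, had 6.60, 1.38 and 4.80 FPKM in the resistant birds, against 4.90, 7.62 and 8.70 FPKM in the susceptible birds. Susceptible 2 and 3 were above all resistant birds and susceptible 1 was not. SLC25A38, the mitochondrial carrier linked to glycine import for this pathway, was listed at 0 in 4 birds and had 0.77 in resistant 1 and 8.72 in susceptible 1.

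In haem breakdown, HMOX1 (haem oxygenase 1; chromosome 1 from 51949101 to 51955226, minus strand) was abundant in every bird, between place 145 and place 337 of 14481 genes by FPKM. Its FPKM was 238, 137 and 440 in resistant 1 to 3, against 260, 201 and 321 in susceptible 1 to 3. The resistant birds held both the lowest and the highest value, and the susceptible birds lay between them. The means were 272 ± 154 and 261 ± 60.3 FPKM in resistant and susceptible livers (SD, n = 3). The log2 fold change was -0.07 (SE 0.46, 95% confidence interval -1.11 to 0.96, limma adjusted p = 0.997), opposite in sign to the difference of the means, and it was 0.02 after rescaling by median ratios and 0.07 after quantile normalization. HMOX2, the constitutive haem oxygenase, had 8.26, 10.5 and 8.95 FPKM in the resistant birds, against 18.5, 18.3 and 9.995 FPKM in the susceptible birds. HMOX1 exceeded HMOX2 in FPKM by 28.9, 13.0 and 49.2 times in resistant 1 to 3 and by 14.0, 10.95 and 32.2 times in susceptible 1 to 3.

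HMOX1 and ALAS1 stood in opposite order in the birds without chromosome W fragments. Resistant 3 and susceptible 3 had the highest HMOX1 (440 and 321 FPKM) and the lowest ALAS1 (28.9 and 32.0 FPKM) of the 6 birds. HMOX1 exceeded ALAS1 by 2.84, 2.06 and 15.2 times in resistant 1 to 3 and by 2.76, 1.29 and 10.05 times in susceptible 1 to 3. Both birds without chromosome W fragments were above the other 4 for 13.3% of all genes tested and below them for 6.6%, so neither arrangement is rare. The summed macrophage markers were also highest in these birds: over the 8 in the table they came to 509 FPKM in resistant 3 and 476 in susceptible 3, against 317 and 314 in resistant 1 and 2 and 269 and 134 in susceptible 1 and 2. MARCO, a scavenger receptor of macrophages, had 25.0, 31.4 and 113 FPKM in resistant 1 to 3, against 47.2, 14.5 and 91.0 FPKM in susceptible 1 to 3. Of those markers 5 of 8 were higher in both birds without chromosome W fragments than in the other 4, and C1QB and VSIG4 were listed at 0 in susceptible 2. The other 3 did not share this arrangement: C1QA had 17.0 FPKM in resistant 3, the lowest of the 6 birds, and TIMD4 and C1QB were lower in resistant 3 than in resistant 1. Macrophages are a known site of HMOX1. The part of macrophage number in the HMOX1 values was not tested, and in whole liver more cells of a type and more RNA per cell cannot be told apart.

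**Figure D2:**
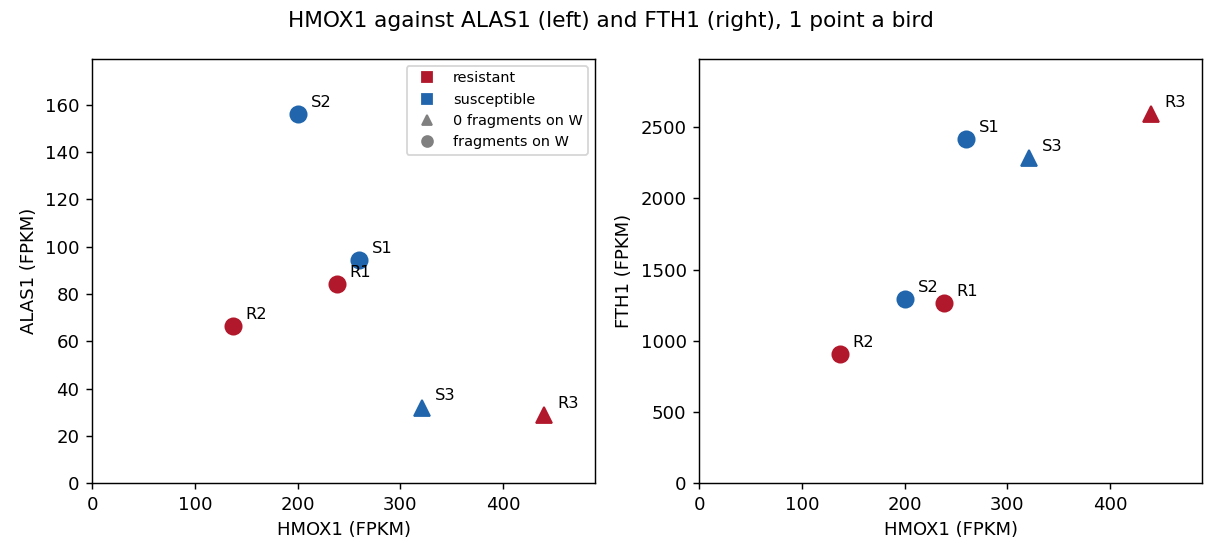
HMOX1 on the horizontal axis against ALAS1 (left) and FTH1 (right), in FPKM, 1 point a bird; colour gives the group and triangles mark the 2 birds with 0 fragments on chromosome W. The triangles have the highest HMOX1 and the lowest ALAS1, and FTH1 is lowest in R2 and highest in R3, as is HMOX1.

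In haem carriage, PGRMC2 (progesterone receptor membrane component 2; chromosome 4 from 33880612 to 33891275, minus strand) encodes a haem-binding membrane protein, known from mouse adipocytes to carry haem from the mitochondrion to the nucleus. Its FPKM was 2.04, 7.24 and 0 in resistant 1 to 3, against 17.5, 75.3 and 43.7 in susceptible 1 to 3. The highest resistant bird was below the lowest susceptible bird. The values rested on 8, 32 and 0 fragments in the resistant birds and 57, 186 and 141 fragments in the susceptible birds. The log2 fold change of FPKM + 1 was -3.77 (SE 0.88, 95% confidence interval -5.73 to -1.80), with an unadjusted p of 0.0017 and an adjusted p of 0.984 from limma. It lay between -4.51 and -2.99 when each bird was left out in turn, and was -2.91 when only the 4 birds that had chromosome W fragments were used, a choice made with the data in view. Because the groups did not overlap, leaving birds out could not turn the sign, and these fits show only how the size of the change varied. The adjusted p from limma was at least 0.440 under every alternative run.

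The relative PGRMC1, named here after its values were seen, overlapped between the groups. It had 413, 509 and 462 FPKM in the resistant birds, against 476, 388 and 240 FPKM in the susceptible birds, with a log2 fold change of 0.38 (SE 0.38, 95% confidence interval -0.47 to 1.22). PGRMC1 exceeded PGRMC2 in FPKM by 202 and 70.3 times in resistant 1 and 2 and by 27.3, 5.15 and 5.50 times in susceptible 1 to 3. No ratio can be given for resistant 3.

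Of the 11 genes listed for haem breakdown and carriage 9 were tested, and 0 passed the adjusted threshold in either direction. PGRMC2, already counted among the 7 members, was the 1 gene of this list with an unadjusted p under 0.05 from limma. Of all genes tested 1.48% were lower and 2.4% higher at that threshold. The list median was -0.11, and -0.09 without FLVCR2, with 7 negative and 2 positive log2 fold changes, where 47.2% of all genes tested were negative. FLVCR2 is among the 7 and, listed at 0 in every resistant bird, could not be positive. HPX, haemopexin, the plasma carrier of free haem secreted by hepatocytes, had 1445, 729 and 1247 FPKM in the resistant birds, against 1824, 976 and 2180 FPKM in the susceptible birds. Its groups overlapped, with a log2 fold change of -0.52 (SE 0.46). FLVCR2, a membrane transporter of the same family as the haem exporter FLVCR1, was listed at 0 in 5 birds and had 7.03 FPKM in susceptible 3, the bird that was alone in having UROS.

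In iron uptake, TFRC (transferrin receptor; chromosome 9 from 14408400 to 14421691, plus strand) had 10.4, 11.8 and 0 FPKM in resistant 1 to 3, against 5.81, 20.4 and 18.4 FPKM in susceptible 1 to 3. Susceptible 2 and 3 were above all resistant birds, and susceptible 1 was below resistant 1 and 2. The log2 fold change of FPKM + 1 was -1.42 (SE 1.04, 95% confidence interval -3.75 to 0.90, limma adjusted p = 0.984). It rested on the 0 in resistant 3: without that bird it was -0.23, and when only the 4 birds that had chromosome W fragments were used it was 0.0018. Its ligand TF, transferrin, known in birds as ovotransferrin, is made by hepatocytes and was named here after its values were seen. TF had 3364, 3568 and 3122 FPKM in the resistant birds, against 3581, 3317 and 4404 FPKM in the susceptible birds, a log2 fold change of -0.16 (SE 0.42). The highest TF was 1.41 times the lowest, and 0.93% of the 4539 genes with an FPKM above 0 in all birds and a mean of at least 5 varied less.

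In iron storage, FTH1 (ferritin heavy chain 1; chromosome 5 from 16149680 to 16154242, minus strand) was the most abundant member, between place 25 and place 50 of all genes in a bird. Its FPKM was 1267, 907 and 2593 in resistant 1 to 3, against 2415, 1291 and 2285 in susceptible 1 to 3. Resistant 3 had the highest value of all birds, and resistant 1 and 2 were below all susceptible birds. The means were 1589 ± 888 and 1997 ± 615 FPKM in resistant and susceptible livers (SD, n = 3), with a log2 fold change of -0.42 (SE 0.50, 95% confidence interval -1.54 to 0.71, limma adjusted p = 0.995). Without resistant 3 the log2 fold change was -0.84 and without resistant 2 it was -0.09. FTH1 exceeded TFRC in FPKM by 122 and 76.7 times in resistant 1 and 2 and by 416, 63.3 and 124 times in susceptible 1 to 3.

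The ratio of FTH1 to HMOX1 varied less between birds than either gene did. FTH1 exceeded HMOX1 in FPKM by 5.32, 6.61 and 5.89 times in resistant 1 to 3 and by 9.28, 6.43 and 7.11 times in susceptible 1 to 3. For each gene alone the span was wider, the highest bird having 2.86 times the lowest for FTH1 and 3.21 times for HMOX1. ALAS1 spanned 5.40 times and FECH 3.73 times, against a median span of 3.61 times over the 4539 genes. FTH1, HMOX1 and ALAS1 kept that order of level, per length, in each of the 6 birds. The order of FECH, TFRC and PGRMC2 below them differed from bird to bird, and PGRMC2 was above FECH and TFRC in susceptible 1, 2 and 3 but below FECH in the 3 resistant birds.

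**Figure D3:**
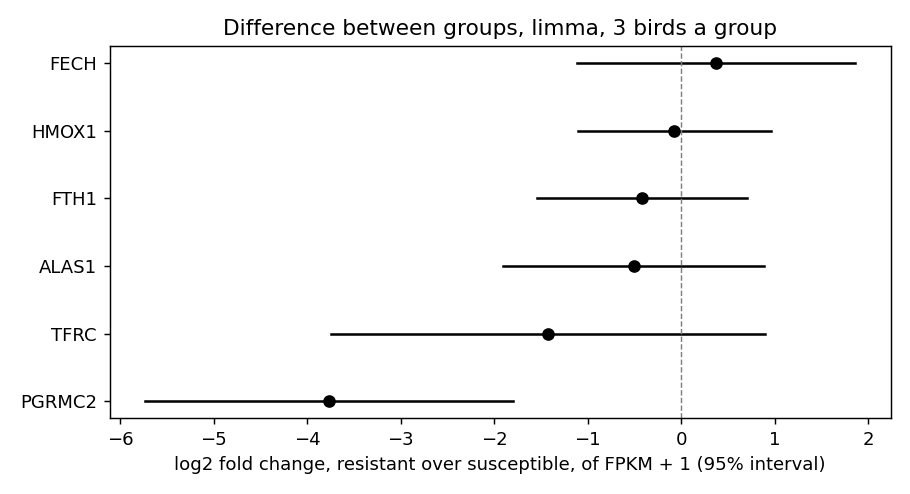
log2 fold change of FPKM + 1, resistant over susceptible, from limma for the 6 members with a value above 0 in both groups; points are estimates and lines 95% intervals (3 birds a group). The interval of PGRMC2, from -5.73 to -1.80, is the only one of the 6 that leaves out 0, before adjustment over all genes.

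The other genes of iron handling were mixed in sign. Of 14 genes listed for iron uptake, storage and export 8 were tested, with 3 positive and 5 negative log2 fold changes and a median of -0.09. 0 passed the adjusted threshold in either direction and 0 had an unadjusted p under 0.05. STEAP3, the reductase that readies iron released from transferrin for transport, had 50.5, 48.3 and 23.2 FPKM in the resistant birds, against 25.9, 24.3 and 14.6 FPKM in the susceptible birds. The bird without chromosome W fragments was the lowest in each group, and the log2 fold change was 0.85 (SE 0.49). SLC39A8, a metal transporter, had 6.23, 8.37 and 20.3 FPKM in the resistant birds, against 6.05, 32.0 and 13.8 FPKM in the susceptible birds, and its log2 fold change of -0.42 was 0.15 without susceptible 2.

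Of 11 genes listed for iron sensing 8 were tested, and 0 passed the adjusted threshold in either direction, with a median log2 fold change of 0.05. NEO1, neogenin, a surface receptor that binds the BMP coreceptor of hepcidin control in mammals, was the 1 of 8 tested genes with no overlap between the groups, where 3.98% of all genes tested were lower with no overlap. It had 1.16, 0.77 and 0.94 FPKM in the resistant birds, against 3.43, 7.57 and 3.09 FPKM in the susceptible birds, a log2 fold change of -1.46 (SE 0.79, unadjusted p = 0.096 from limma). BMP6, the ligand that raises hepcidin in the mammalian liver, had 3.48, 4.296 and 8.87 FPKM in the resistant birds, against 0, 0 and 7.48 FPKM in the susceptible birds. ACO1, the cytosolic aconitase that doubles as an iron regulatory protein, named after its values were seen, had 211 ± 23.0 FPKM in resistant and 218 ± 32.7 FPKM in susceptible livers (SD, n = 3). TMPRSS6, the protease that restrains this signal, had 134 ± 20.7 FPKM in resistant and 121 ± 30.6 FPKM in susceptible livers (SD, n = 3). Its log2 fold change of 0.18 was -0.03 without susceptible 1.

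The list of mitochondrial iron and iron-sulphur cluster assembly, which supplies the cofactor that FECH needs, had 13 of 16 genes tested and a median log2 fold change of 0.51. 7 were positive and 6 negative, 0 passed the adjusted threshold, and 0 had an unadjusted p under 0.05. GLRX5, a glutaredoxin that passes on clusters, had 29.3, 14.5 and 39.4 FPKM in the resistant birds, against 8.37, 21.1 and 2.76 FPKM in the susceptible birds. SLC25A37, mitoferrin 1, which brings iron into the mitochondrion, had 11.2, 11.6 and 15.3 FPKM in the resistant birds, against 0, 0 and 20.0 FPKM in the susceptible birds. With 0s treated as missing its log2 fold change was -0.63, against 2.30 with all values, so its sign turned on the listed 0s. LYRM4, a partner of the cysteine desulphurase, had 32.0, 19.7 and 16.2 FPKM in the resistant birds, against 47.4, 27.0 and 44.5 FPKM in the susceptible birds.

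Among 13 listed transcription regulators of haem genes 8 were tested, with a median log2 fold change of -0.15 and 0 past the adjusted threshold in either direction. BACH1, the repressor of HMOX1 that haem releases, had 35.3 ± 12.9 FPKM in resistant and 53.2 ± 25.1 FPKM in susceptible livers (SD, n = 3), with a log2 fold change of -0.52 (SE 0.51). NFE2L2, which activates HMOX1 and ferritin genes, had 45.2 ± 4.11 FPKM in resistant and 55.7 ± 16.9 FPKM in susceptible livers (SD, n = 3), with a log2 fold change of -0.26 (SE 0.40). NFE2L2 and MAFG were lower, unlike HMOX1, in both birds without chromosome W fragments than in the other 4. MAFK, MAFF and PPARGC1A were higher. These were 2 and 3 of the 8, where 6.6% and 13.3% of all genes tested had these arrangements. BACH2, better known from lymphocytes, was the 1 of 8 with no overlap between groups, where 4.44% of all genes tested were higher with no overlap, and 2 susceptible birds were listed at 0. Its values were 3.79, 2.29 and 3.26 FPKM in the resistant birds, against 0, 0 and 1.496 FPKM in the susceptible birds. Of 14 haem-containing enzymes and partners 9 were tested, with a median of -0.03 and 0 past the adjusted threshold in either direction. POR, the reductase that feeds electrons to cytochrome P450 and haem oxygenase, had 59.5, 42.8 and 116 FPKM in the resistant birds, against 55.5, 52.9 and 121 FPKM in the susceptible birds. As with HMOX1, the birds without chromosome W fragments had the highest POR of each group. The sign of its log2 fold change, -0.09, turned to 0.0041 under median ratios and to 0.04 under quantile normalization.

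**Figure D4:**
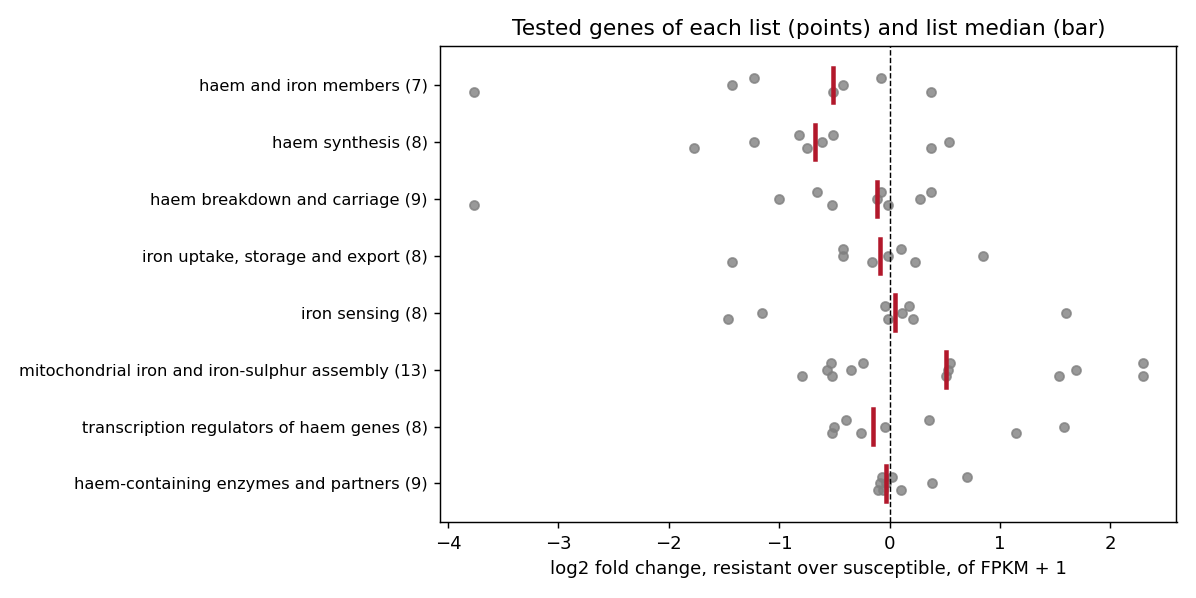
log2 fold change of FPKM + 1, resistant over susceptible, of every tested gene (grey points) in the haem and iron lists, with the number of tested genes in parentheses and the list median as a red bar; genes can be in more than 1 list. The medians run from -0.68 for haem synthesis to 0.51 for mitochondrial iron and iron-sulphur assembly, and the lowest point is PGRMC2.

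Red cells carry haem genes of their own, and red cell markers were low in all birds. Of the 8 in the table, between 4 and 7 were listed at 0 in a resistant bird and between 6 and 7 in a susceptible bird. Their summed FPKM was 3.85 to 12.2 in resistant and 9.43 to 26.7 in susceptible livers. HBG2 and HBE1, the most abundant by mean, are globin genes, and HBG2 had 11.2, 2.14 and 0 FPKM in the resistant birds, against 9.43, 0.18 and 26.7 FPKM in the susceptible birds. Adult globin genes were searched for as HBAA, HBAD, HBA1 and HBBA among 19 red cell symbols, and none of these names was among the 8 found. Whether the gene named HBG2 is an adult globin was not tested. No value is given for the red cell enzyme ALAS2. Macrophage markers summed to between 314 and 509 FPKM in resistant and between 134 and 476 FPKM in susceptible livers. The sums of both lists overlapped between the groups, but 7 of the 8 macrophage markers had a positive log2 fold change, with a median of 0.55. TIMD4, a macrophage receptor, did not overlap, at 77.7, 77.6 and 72.4 FPKM in the resistant birds, against 36.1, 42.0 and 69.1 FPKM in the susceptible birds. Nor did RHAG, a red cell membrane protein, at 0.98, 0.036 and 3.85 FPKM in the resistant birds and listed at 0 in the susceptible birds. The RHAG values rested on 24, 1 and 56 fragments. These were 1 of 8 tested macrophage and 1 of 3 tested red cell markers, where 4.44% of all genes tested were higher with no overlap. The part of macrophages and red cells in the PGRMC2 difference was not tested.

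For each member the genes with the most similar pattern over the 6 birds were found by the root mean square difference of log2(FPKM + 1) values, after each gene was centred on its own mean, among 5523 genes with a symbol and a mean FPKM of at least 5. FTH1 was closest to PSMA6, a proteasome subunit, at 0.04 log2 units, and to CNBP at 0.10, where FTH1 itself varied about its mean by 0.57. PSMA6 had 61.7, 41.3 and 126 FPKM in the resistant birds, against 114, 62.8 and 116 FPKM in the susceptible birds. HMOX1 was closest to TPPP (0.15) and AOC1 (0.16), ALAS1 to MYO1D (0.16) and THOC1 (0.27), and FECH to PTPLAD1 (0.13) and TLR3 (0.16). TFRC was closest to CASC4 (0.20) and B4GALT5 (0.30). PGRMC2 varied about its mean by 2.16 log2 units, and its nearest genes were ZNF259, a zinc finger protein, at 0.57 and CLDN12, a claudin, at 0.91. ZNF259 had 1.22, 2.63 and 0 FPKM in the resistant birds, against 7.02, 27.7 and 13.5 FPKM in the susceptible birds, the same order of birds as PGRMC2. The nearest genes to UROS, GAL13 and JAG1, were at 0.67 and 0.68 and shared its high value in susceptible 3.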

How the data were processed

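The FPKM values were made and deposited by the authors. cutadapt 1.9.3, HISAT2 2.0.4, Cufflinks, Cuffdiff and the galGal4 build are listed, with no role given, per the submitters' processing notes. The authors also deposited a normalized signal, named counts per the file headers. At least 99.25% of its values above 0.1 were multiples of a single step per bird, to within 0.02 steps. Dividing by that step and rounding gave the fragments quoted. The 7 members and the gene lists were chosen with earlier results of these data known. There were 0 columns of other samples. Starts were raised by 1 to count from 1.

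limma 3.58.1 in R 4.3.3 (lmFit, then eBayes with a mean-variance trend) was fitted to log2(FPKM + 1) for all 9626 genes whose mean FPKM reached 0.5. The contrast was resistant minus susceptible, tests were 2-sided, and p-values were adjusted by Benjamini-Hochberg over all of these genes at 0.05. The scale understates changes of low genes. Genes at 0 in a bird are given per bird. The rule for named genes took, besides the members, the 4 genes with the smallest p and any without overlap in each haem or iron list, the 2 most abundant of each marker list, and the 2 nearest in pattern to each member. Not all are described. No 2 birds of a group were duplicates: the lowest chi-square between their fragments was 144 per degree of freedom. The p-values set the difference between groups against the spread between these birds, which limma moderates toward a trend over all genes. The figures were drawn with matplotlib 3.10.9.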

Additional observations from a re-analysis of the deposited data

How the results depend on the processing

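limma called 0 genes at an adjusted p under 0.05 in all 16 alternatives run, and no other tool was run; at an unadjusted p under 0.05 it counted 231 genes higher and 142 lower in resistant birds with all birds and the settings reported. These counts, the background for PGRMC2, were 85 and 341 with 0s as missing, 81 and 105 with a mean FPKM of at least 5, and 618 and 216 with only the 4 birds that had chromosome W fragments. The lowest adjusted p of any gene under an alternative was 0.16. With the bird number of the titles as a replicate block 0 genes were called, with 274 higher and 184 lower at an unadjusted p under 0.05. The numbers are not said to pair birds, and deviations of birds with the same number had correlations of 0.01, 0.06 and 0.24. 5 of the 110 member values changed sign, 4 of HMOX1 and 1 of TFRC. Many of the 110 could not: other filters, the replicate block and a balanced covariate leave a log2 fold change as it is. So do 0s as missing for a gene without 0s. UROS could not be positive, and PGRMC2 could not turn when birds were left out. The count of 5 is therefore no measure of stability. HMOX1 was 0.021 under median ratios, 0.066 under quantile normalization, and between -0.50 and 0.34 when each bird was left out. With only the 4 birds that had chromosome W fragments TFRC was 0.0018. This choice and the presence of W fragments as a covariate were added after seeing the data. The covariate is balanced between the groups and left each log2 fold change as it was. With 0s treated as missing BMP6 was -0.46, CYB5B -1.22, MAFK -0.84 and SLC25A37 -0.63. In the 4 birds CYB5B was -1.41 and ID1 0.39. POR was 0.0041 under median ratios and 0.039 under quantile normalization. Leaving out each bird gave ranges from -1.22 to 1.68 for CYB5B, -0.32 to 0.18 for CYB5R3, -0.84 to 2.64 for MAFK, -0.48 to 0.29 for POR, -1.37 to 0.27 for SLC25A38, -0.97 to 0.15 for SLC39A8 and -0.035 to 0.34 for TMPRSS6. Other settings moved the median of all genes to at most 0.15 and at least -0.19 (with 0s as missing), against 0.05. The planned edgeR test on recovered fragments was not run, because some values of each bird were no multiple of the step. Of the values above 0.1, between 99.25% and 99.58% per bird were multiples.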

Other observations

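SLC40A1, CP and NCOA4, each picked for its values out of the 8 tested genes of iron uptake, storage and export, were highest in the birds without chromosome W fragments, as was HMOX1. SLC40A1, ferroportin, the iron exporter, had 209 FPKM in resistant 3 and 199 FPKM in susceptible 3, against 95.1 and 171 FPKM in resistant 1 and 2 and 161 and 65.6 FPKM in susceptible 1 and 2. With 171 FPKM in resistant 2, the arrangement of SLC40A1 depended on the scaling. CP, ceruloplasmin, the plasma ferroxidase that works with ferroportin, had 377 and 411 FPKM in resistant 3 and susceptible 3, against 200.1 and 231 FPKM in resistant 1 and 2 and 258 and 170.2 FPKM in susceptible 1 and 2. NCOA4, which delivers ferritin for breakdown, had 64.2 and 62.7 FPKM in resistant 3 and susceptible 3, against 44.5 and 36.1 FPKM in resistant 1 and 2 and 49.7 and 26.6 FPKM in susceptible 1 and 2. Of those 8 genes, 3 were higher and 1, STEAP3, lower in both birds without chromosome W fragments than in the other 4, where 13.3% and 6.6% of all genes tested had these arrangements, and TFRC, TF, FTH1 and SLC39A8 overlapped. Of 8 macrophage markers 5 were likewise higher in the birds without chromosome W fragments, in FPKM as listed. For CSF1R and LY86 among the 5 this depended on the scaling. CAT, catalase, a haem enzyme, was picked for its values out of the 9 tested haem-containing enzymes and partners. Of those 9, CAT and CYB5R3 were lower and COX10 and POR higher in both birds without chromosome W fragments than in the other 4. COX10 had 10.5 FPKM in resistant 2 and 13.0 FPKM in susceptible 3, and its arrangement also depended on the scaling. CAT had 584 and 600.1 FPKM in resistant 3 and susceptible 3, the arrangement of ALAS1. It had 915 and 1040 FPKM in resistant 1 and 2 and 1165 and 900.2 FPKM in susceptible 1 and 2. The sex, laying state and age of the birds are not in the labels, and their part in these values was not tested.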
